A study of Mus musculus with 6 samples.

Results

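The urea cycle and periportal amino acid genes are the 10 rows of the deposited table, of 23036 in all, whose gene name is Nags, Cps1, Slc25a15, Otc, Ass1, Asl, Arg1, Gls2, Hal or Sds. All 10 were found by symbol, were protein-coding and passed the filter on low counts. They were measured by poly-A RNA-seq in 6 liver libraries of female mice that ate a western diet, rich in fat and sugar, for 20 weeks, starting at 8 weeks of age. The LKO mice had Hkdc1 deleted in the liver and the flox mice carried the floxed Hkdc1 allele; the sources used here do not name the Cre line or its promoter, and no group on a control diet was analysed here. Hkdc1 encodes a hexokinase-like protein, and the comparison asks what its loss in the liver does to liver RNA during diet-induced steatohepatitis.

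The urea cycle converts toxic ammonia to urea. Carbamoyl phosphate is made from ammonia in the mitochondrion, joined to ornithine to give citrulline, and citrulline is then turned in the cytosol into arginine, from which arginase releases urea and returns ornithine. In the liver lobule these enzymes, with glutaminase and the enzymes that strip nitrogen from histidine and serine, are richest in hepatocytes near the portal vein, whereas glutamine synthetase (Glul) marks the hepatocytes around the central vein.

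The labels conflict for 2 of the 6 libraries. The genotype field names 3 LKO and 3 flox libraries, but the title of LKO 1 names flox and the title of flox 3 names LKO. Differences of the 10 genes are therefore given in 3 readings: in the 4 libraries whose labels agree (LKO 2 and LKO 3 against flox 1 and flox 2), by the genotype field, and by the titles (LKO 2, LKO 3 and flox 3 against flox 1, flox 2 and LKO 1). Hkdc1 itself had 1 count in LKO 2 and 4 in LKO 3, against 49 in flox 1 and 22 in flox 2. With edgeR and the filter on low counts, its log2 fold change did not pass in any reading. It was -3.59 in the agreeing libraries (SE 0.75, adjusted p by edgeR = 0.11), -2.12 by the genotype field (SE 1.07, adjusted p by edgeR = 0.571) and -3.51 by the titles (SE 0.76, adjusted p by edgeR = 0.108). DESeq2 called Hkdc1 lower in the agreeing libraries (DESeq2 adjusted p = 0.0263) and by the titles (DESeq2 adjusted p = 0.00798). By the genotype field DESeq2 did not call it (DESeq2 adjusted p = 0.593). In the agreeing libraries edgeR with no filter on low counts also called Hkdc1 (edgeR adjusted p = 0.00575). The library labelled LKO 1 had 10 counts of it and the library labelled flox 3 had 1. Which part of the gene was deleted is not stated in the labels. Library names below follow the genotype field. Total counts were 16166515 to 17366295.

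The 10 genes held 0.857% and 0.862% of all counts in LKO 2 and LKO 3, against 0.633% and 0.837% in flox 1 and flox 2. The share was 0.719% in LKO 1 and 0.914% in flox 3, so flox 1 lay lowest and flox 3 highest. Levels per length, as deposited FPKM averaged over the 6 libraries, ran from 901 ± 105 for Ass1 to 22.5 ± 2.96 for Nags (SD, n = 6). Next below Ass1 came Cps1 at 509.6 ± 99.5 FPKM and Arg1 at 501 ± 63.7 FPKM. Ass1 was above Cps1 in 6 of 6 libraries, while Cps1 was above Arg1 in 3 of 6, so the order of that pair was not set. A gap then separated these from Sds (126 ± 24.4 FPKM), Asl (112 ± 22.4), Gls2 (85.1 ± 10.6) and Otc (69.0 ± 8.45). From Sds to Otc each gene's range overlapped that of the next. Slc25a15 (49.1 ± 8.82 FPKM) and Hal (41.7 ± 13.9 FPKM) overlapped too, with Slc25a15 above Hal in 4 of 6 libraries. Nags lay under every other gene in each library.

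**Figure D1:**
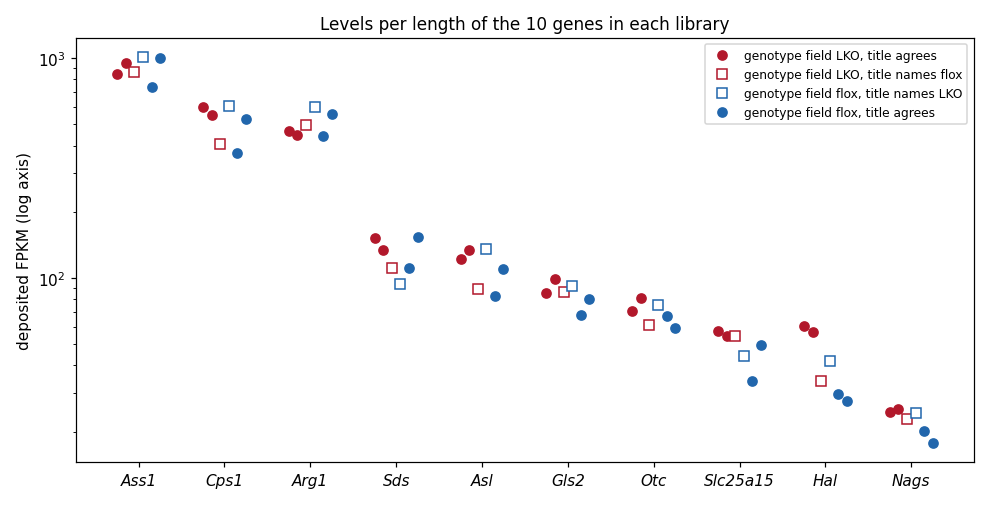
Deposited FPKM (log axis) of each of the 10 genes in the 6 libraries, ordered by mean; red points are libraries labelled LKO and blue points those labelled flox by the genotype field, and open squares are the libraries whose title names the other group. Ass1, Cps1 and Arg1 formed the top of the order and Nags the bottom, and Hal spread widest on the log axis, from 27.7 to 60.3 FPKM.

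Hal rose in LKO in the 4 libraries whose labels agree, and it was the 1 gene of the 10 to pass the test there. Hal encodes histidine ammonia-lyase, which removes ammonia from histidine in the first step of its breakdown (ENSMUSG00000020017, GRCm39 chromosome 10, 93324630 to 93355166, plus strand). It stood at 331 and 333 CPM in LKO 2 and LKO 3, against 145 and 153 CPM in flox 1 and flox 2 (CPM, counts scaled by library total and TMM factor). The groups did not overlap. The library labelled LKO 1 had 194 CPM and the library labelled flox 3 had 247 CPM, so both libraries with conflicting labels lay between the agreeing groups. The means were 332 ± 1.36 CPM in LKO and 149 ± 5.83 CPM in flox (SD, n = 2 each). The log2 fold change was 1.16 (SE 0.15; adjusted p by edgeR = 0.0455), a fold of 2.23 with a 95% interval of 1.72 to 2.89.

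With edgeR and a filter on low counts, the call on Hal was close to the threshold. DESeq2 also called Hal in the agreeing libraries (DESeq2 adjusted p = 6.5e-09), in a fit that called 721 of 15582 genes. So did edgeR with no filter (edgeR adjusted p = 0.00073), in a fit that called 1108 of 21949 genes. The call was lost with limma-voom (log2 fold change 1.16, limma-voom adjusted p = 0.059), in a fit that called 44 of 14625 genes. It was also lost without flox 1 and without flox 2, though the log2 fold change moved little (1.11 and 1.19). Without LKO 2 the log2 fold change was 1.17. A fit without 1 of the 4 libraries leaves a group with 1 library, whose spread is taken from the other group. A call lost there need not be particular to Hal. Grouped by the titles, Hal averaged 304 ± 49.1 CPM in LKO and 164 ± 26.1 CPM in flox (SD, n = 3 each) and the groups did not overlap. The log2 fold change there was 0.89 (SE 0.17; adjusted p by edgeR = 0.0872). By the genotype field the means were 286 ± 79.6 CPM in LKO and 182 ± 56.5 CPM in flox (SD, n = 3 each), the groups overlapped, and the log2 fold change of 0.66 did not pass (SE 0.28; adjusted p by edgeR = 0.554). Of 14625 genes tested in the 4 agreeing libraries 91 were called, or 0.622%, of which 19 were higher in LKO (0.13%), and Hal ranked 79 by p.

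The promoter of Hal is shown because this gene carries the call. Those of Nags, the gene of second lowest p, and Ass1, which had the smallest difference among the 5 of 10 genes with a RefSeq promoter entry, stand beside it. Each runs from 250 bases before the RefSeq start to 50 after it, on the plus strand of GRCm38.p6. The entries are chr10:93488518-93488817 (Hal), chr11:102145263-102145562 (Nags) and chr2:31470020-31470319 (Ass1). These coordinates are not comparable with the GRCm39 positions of the deposited table. Capitals mark matches, on either strand, to any of 5 motifs: TGACGTCA and its core TGACG, the cAMP response element; TTGCNNAA, of the C/EBP type; CAAAGTCCA, of the HNF4 type; and TATAAA, the TATA box.
Hal: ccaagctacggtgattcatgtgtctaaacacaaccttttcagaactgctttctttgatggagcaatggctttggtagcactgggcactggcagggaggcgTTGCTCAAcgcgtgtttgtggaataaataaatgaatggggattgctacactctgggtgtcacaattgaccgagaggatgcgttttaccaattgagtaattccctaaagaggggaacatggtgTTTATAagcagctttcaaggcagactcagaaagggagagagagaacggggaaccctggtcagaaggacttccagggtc
Nags: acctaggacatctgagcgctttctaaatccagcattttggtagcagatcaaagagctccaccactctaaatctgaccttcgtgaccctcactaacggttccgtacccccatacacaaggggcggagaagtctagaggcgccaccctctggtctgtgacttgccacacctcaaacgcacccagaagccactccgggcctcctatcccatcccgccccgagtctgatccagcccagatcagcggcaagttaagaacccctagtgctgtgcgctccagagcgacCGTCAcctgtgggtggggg
Ass1: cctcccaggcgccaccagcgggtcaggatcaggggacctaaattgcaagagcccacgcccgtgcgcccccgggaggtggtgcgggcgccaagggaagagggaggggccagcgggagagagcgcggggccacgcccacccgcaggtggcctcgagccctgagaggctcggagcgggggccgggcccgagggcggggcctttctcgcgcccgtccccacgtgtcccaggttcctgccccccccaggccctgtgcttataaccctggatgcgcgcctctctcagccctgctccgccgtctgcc

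In the Hal window TTGCTCAA began 150 bases before the start and TATAAA, on the minus strand, began 28 bases before it. Nags held the core TGACG on the minus strand 32 bases into the transcript, and Ass1 held none of the 5 motifs in these letters. Of 32851 promoter windows of the same length, TTGCNNAA was in 10.8%, TATAAA in 13.6%, TGACG in 20.8%, TGACGTCA in 1.79% and CAAAGTCCA in 0.475%. A match is a description of the sequence and not of binding.

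**Figure D2:**
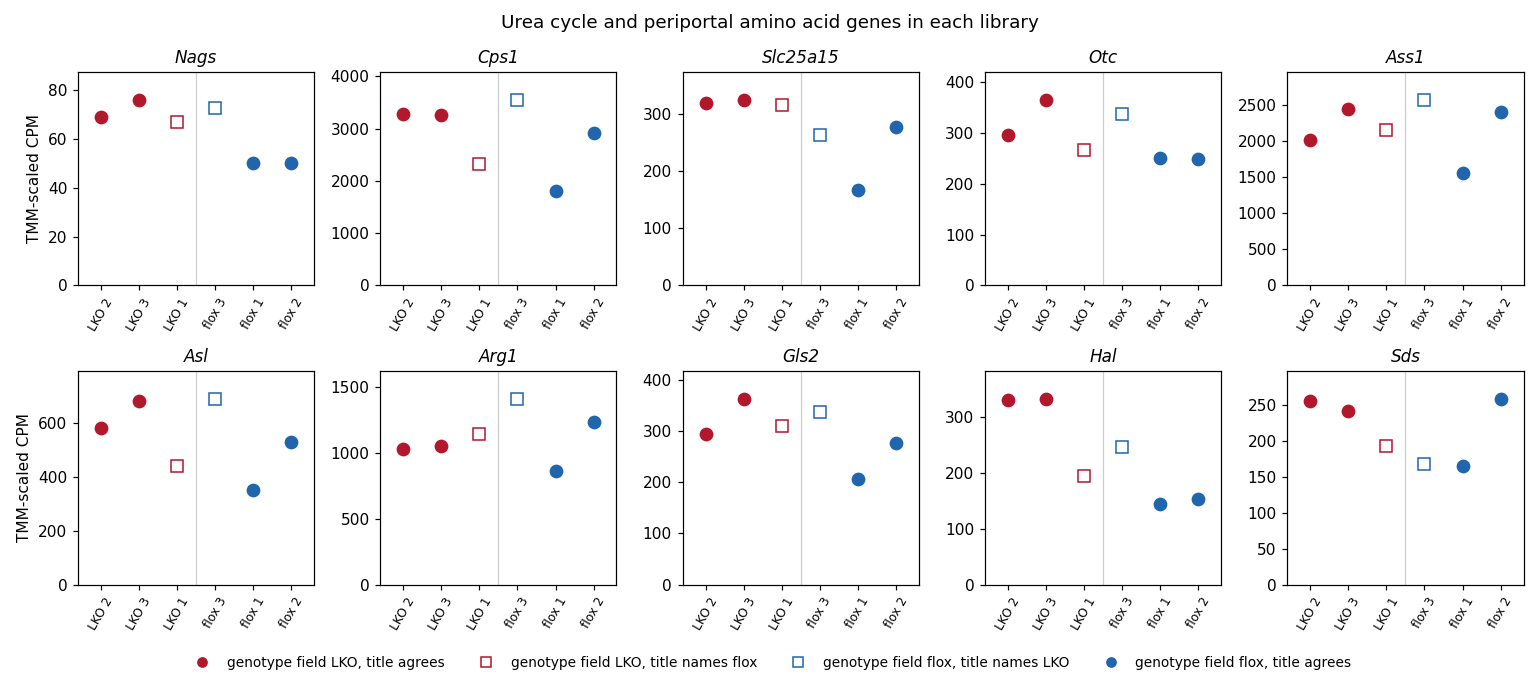
TMM-scaled CPM of each of the 10 genes (panels, each with its own axis from 0) in the 6 libraries, LKO left of flox by the genotype field; open squares are libraries whose title names the other group. Hal was at 331 and 333 CPM in LKO 2 and LKO 3, against 145 and 153 CPM in flox 1 and flox 2, and flox 1 was the lowest library for 9 of the 10 genes.

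Ammonia enters the cycle through Cps1, carbamoyl-phosphate synthetase 1, which needs the N-acetylglutamate made by Nags. Neither gene passed in any of the 3 readings. Nags (chromosome 11, 102036339 to 102040303, plus strand) had 69.0 and 76.1 CPM in LKO 2 and LKO 3, against 50.1 and 50.2 CPM in flox 1 and flox 2, with 66.9 CPM in LKO 1 and 72.6 CPM in flox 3. Every library titled LKO was above every library titled flox. It differed by a log2 fold change of 0.54 in the agreeing libraries (SE 0.13; adjusted p by edgeR = 0.138), 0.38 by the titles (SE 0.14; adjusted p by edgeR = 0.27) and 0.30 by the genotype field (SE 0.16; adjusted p by edgeR = 0.586). Cps1 (chromosome 1, 67162185 to 67270418, plus strand), the most counted of the 10 genes, had 3281 and 3256 CPM in LKO 2 and LKO 3, against 1802 and 2918 CPM in flox 1 and flox 2. LKO 1 had 2325 CPM and flox 3 had 3550.7 CPM. The agreeing groups did not overlap, but flox 2 lay much nearer to the LKO libraries than to flox 1. Cps1 had a log2 fold change of 0.48 in the agreeing libraries (SE 0.30; adjusted p by edgeR = 0.497), and the 95% interval of the fold, 0.833 to 2.32, holds both no change and a doubling. For Cps1 by the genotype field it was 0.10 (SE 0.28; adjusted p by edgeR = 0.911), with groups that overlapped, and by the titles 0.52 (SE 0.20; adjusted p by edgeR = 0.292), with groups that did not.

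Ornithine is carried into the mitochondrion by the product of Slc25a15 and joined to carbamoyl phosphate by ornithine transcarbamylase, encoded by Otc. Slc25a15 (chromosome 8, 22865567 to 22888613, minus strand) had 321 and 326 CPM in LKO 2 and LKO 3, against 167 and 278 CPM in flox 1 and flox 2. With 316 CPM in LKO 1 and 263 CPM in flox 3, it was the 1 gene of the 10 whose 3 LKO libraries all lay above the 3 flox libraries by the genotype field, as 7.63% of all tested genes did. Its log2 fold change was 0.44 by that field (SE 0.19; adjusted p by edgeR = 0.554) and 0.54 in the agreeing libraries (SE 0.26; adjusted p by edgeR = 0.371). By the titles it was 0.26 (SE 0.23; adjusted p by edgeR = 0.681) and the groups overlapped. Otc (chromosome X, 10118544 to 10187263, plus strand) had 295 and 365 CPM in LKO 2 and LKO 3, against 251.2 and 249.3 CPM in flox 1 and flox 2. LKO 1 had 267 CPM and flox 3 had 337 CPM, so the libraries titled LKO were all above those titled flox. Otc had a log2 fold change of 0.41 in the agreeing libraries (SE 0.18; adjusted p by edgeR = 0.327) and 0.38 by the titles (SE 0.12; adjusted p by edgeR = 0.221). It was 0.15 by the genotype field (SE 0.18; adjusted p by edgeR = 0.786) and the groups overlapped.

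The cytosolic steps run through argininosuccinate synthetase (Ass1), argininosuccinate lyase (Asl) and liver arginase (Arg1), and none of these genes passed with edgeR in any reading. Asl (chromosome 5, 130040099 to 130058088, minus strand) had 583 and 683 CPM in LKO 2 and LKO 3, against 352 and 531 CPM in flox 1 and flox 2, with 442 CPM in LKO 1 and 691 CPM in flox 3. The libraries titled LKO were all above those titled flox. Its log2 fold change was 0.53 in the agreeing libraries (SE 0.25; adjusted p by edgeR = 0.362) and 0.56 by the titles (SE 0.17; adjusted p by edgeR = 0.198). Grouped by the genotype field it was 0.12 (SE 0.27; adjusted p by edgeR = 0.888) and the groups overlapped. Ass1 (chromosome 2, 31360219 to 31410684, plus strand) had 2010.4 and 2440.2 CPM in LKO 2 and LKO 3, against 1560.5 and 2400.6 CPM in flox 1 and flox 2. Flox 2 stood between the LKO libraries, so the groups overlapped. LKO 1 had 2156 CPM and flox 3 had 2572 CPM. For Ass1 the log2 fold change was 0.17 in the agreeing libraries (SE 0.29; adjusted p by edgeR = 0.816), 0.02 by the genotype field (SE 0.22; adjusted p by edgeR = 0.983) and 0.20 by the titles (SE 0.20; adjusted p by edgeR = 0.717). Arg1 (chromosome 10, 24791119 to 24803382, minus strand) had 1027 and 1052 CPM in LKO 2 and LKO 3, against 866 and 1234 CPM in flox 1 and flox 2. Both LKO libraries lay inside the flox range, with 1143 CPM in LKO 1 and 1411 CPM in flox 3. The log2 fold change of Arg1 was -0.01 (SE 0.24; adjusted p by edgeR = 0.99), and its fold of 0.994 has a 95% interval of 0.664 to 1.49, which leaves room for a change of that size in either direction. Arg1 had -0.12 by the genotype field (SE 0.20; adjusted p by edgeR = 0.842) and 0.11 by the titles (SE 0.19; adjusted p by edgeR = 0.852). Its sign was positive with limma-voom in the agreeing libraries (0.01), and that for Ass1 became negative when libraries were scaled to hepatocyte markers (-0.10).

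Gls2, the liver glutaminase that frees ammonia from glutamine, had 294 and 363 CPM in LKO 2 and LKO 3, against 207 and 277 CPM in flox 1 and flox 2, with 309 CPM in LKO 1 and 338 CPM in flox 3. For Gls2 the log2 fold change was 0.45 in the agreeing libraries (SE 0.21; adjusted p by edgeR = 0.369), 0.23 by the genotype field (SE 0.19; adjusted p by edgeR = 0.693) and 0.33 by the titles (SE 0.17; adjusted p by edgeR = 0.442). Sds encodes serine dehydratase, which deaminates serine to pyruvate, and had 255 and 241 CPM in LKO 2 and LKO 3, against 165 and 259 CPM in flox 1 and flox 2. Here flox 2 was the highest library of all and LKO 1 (193 CPM) and flox 3 (168 CPM) were close to the low end. Sds had a log2 fold change of 0.23 in the agreeing libraries (SE 0.24; adjusted p by edgeR = 0.679) and -0.03 when these were scaled to hepatocyte markers. It was 0.22 by the genotype field (SE 0.21; adjusted p by edgeR = 0.727) and 0.11 by the titles (SE 0.21; adjusted p by edgeR = 0.868). Gls2 (chromosome 10, 128030326 to 128045873, plus strand) and Sds (chromosome 5, 120614591 to 120621997, plus strand) share bases with Spryd4 and Plbd2 on the other strand. Nags, Gls2 and Sds also overlap lncRNA rows. The strand setting of the counts is not given, so reads in these overlaps are uncertain.

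**Figure D3:**
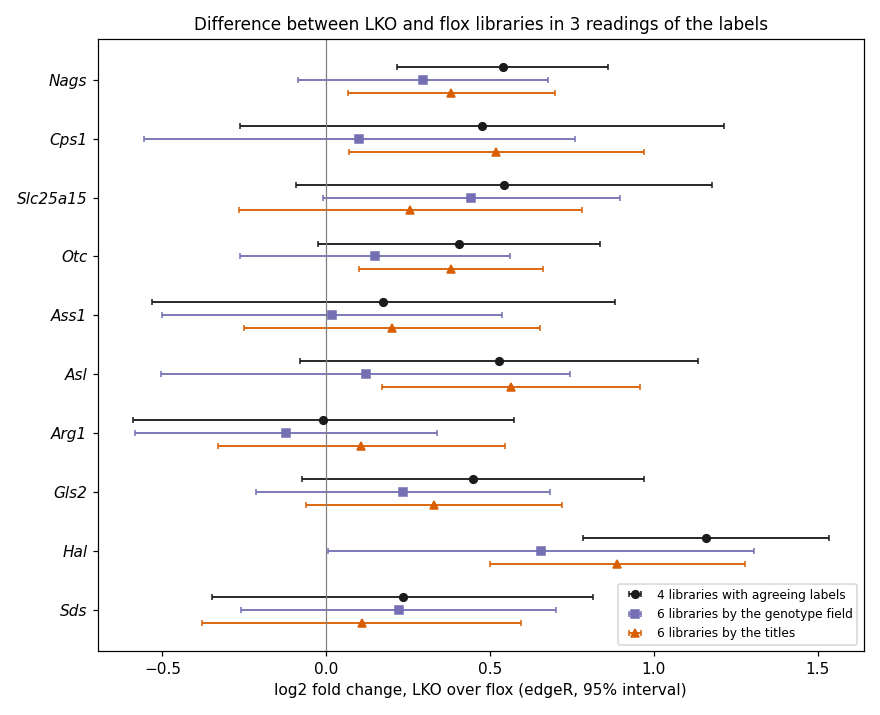
Log2 fold change of each of the 10 genes, LKO over flox, with its 95% interval from edgeR, in the 4 libraries with agreeing labels (black circles), by the genotype field (violet squares) and by the titles (orange triangles). Hal stood farthest to the right in each reading, at 1.16, 0.66 and 0.89, and the intervals of Slc25a15, Ass1, Arg1, Gls2 and Sds crossed 0 in all of them.

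As a set, 1 of the 10 genes was called higher and 0 lower in the agreeing libraries, and 9 did not pass. The median log2 fold change of the 10 was 0.46, beside 0.00 over all 14625 genes tested. General hepatocyte markers (12 genes, 0 called) had a median of 0.34 in the agreeing libraries, 0.19 by the genotype field and 0.22 by the titles. DESeq2 also called Hal alone of the 10, where it called 4.63% of all genes with an adjusted p. Every agreeing LKO library was above both agreeing flox libraries for 7 of the 10 genes, as was the case for 23.8% of all tested genes. An unadjusted p under 0.05 with LKO higher was seen for 2 of the 10 (Nags and Hal), where 6.74% of all genes had one, and 0 of the 10 had both LKO libraries below both flox libraries, as 25.5% of all genes did. By the titles edgeR called 0 of the 10, where 0.0559% of all genes were called higher, with 5 at an unadjusted p under 0.05 (5.31% of all genes, LKO higher); DESeq2 called Asl and Hal (3.84% of all genes with an adjusted p) and limma-voom called 0. Over all 14310 genes edgeR called 51, or 0.356%. The 5 genes Nags, Cps1, Otc, Asl and Hal had every library titled LKO above every library titled flox, as did 8.35% of all genes, and the median of the 10 was 0.35, beside 0.00 over all genes. By the genotype field edgeR called 0 of the 10 and 0 of all 14310 genes (0%). Of the 10, Hal alone had an unadjusted p under 0.05 there, where 4.1% of all genes did with LKO higher. None of the 10 had every LKO library below every flox library, as 6.81% of all genes did, and DESeq2 (0.28% of all genes with an adjusted p) and limma-voom called 0. The median was 0.18, beside -0.01 over all genes.

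In TMM-scaled CPM, flox 1 was the lowest library for 9 of the 10 genes, Otc being the exception. That order depends on the scaling. In deposited FPKM, flox 2 was lowest for Nags (17.7 FPKM), Otc (58.9 FPKM) and Hal (27.7 FPKM), and flox 3 for Sds (94.0 FPKM). Without flox 1 the median of the 10 in the agreeing libraries was 0.23, against 0.46 with it. Without flox 2 the median was 0.62. Scaled to hepatocyte markers in place of TMM, the agreeing libraries gave a median of 0.19 for the 10, with 7 of 10 above 0. This scaling moved the median of all genes there to -0.29. By the genotype field it gave a median of 0.01 for the 10, with 5 of 10 above 0 (all genes -0.20). By the titles it gave 0.17, with 8 of 10 above 0 (all genes -0.19). Summed hepatocyte markers (12 of 12 genes, albumin and other plasma protein genes, all present in each library) were at 127771 and 139160 CPM in LKO 2 and LKO 3, against 109979 and 120267 CPM in flox 1 and flox 2. LKO 1 had 127677 CPM and flox 3 had 136904 CPM of these. Fibrosis and stellate cell markers (10 of 10 genes present, 4 called lower in the agreeing libraries) summed to 329.9 and 302 CPM in LKO 2 and LKO 3, against 1217 and 848 CPM in flox 1 and flox 2, with 454 CPM in LKO 1 and 383 CPM in flox 3. Cholangiocyte markers (8 of 8 present, 1 lower) summed to 49.8 and 78.4 CPM in these LKO libraries, against 497 and 375 CPM in the flox libraries, with 185 CPM in LKO 1 and 94.9 CPM in flox 3. Macrophage markers (12 of 12 present, 2 lower) summed to 885 and 669 CPM in LKO 2 and LKO 3, against 1095 and 945 CPM in flox 1 and flox 2, with 868 CPM in LKO 1 and 833 CPM in flox 3. Over all genes, 72 of 14625 were called lower in the agreeing libraries. Of these 3 lists 0 genes were called by the genotype field, where 0 of 14310 genes were called. By the titles 1 was called, the macrophage gene Trem2, where 43 of 14310 genes were called lower. The part of these cell types in the differences of the 10 genes was not tested, and in whole liver fewer hepatocytes and less RNA per hepatocyte cannot be told apart.

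Relative to the hepatocyte markers, Hal differed between the groups in the agreeing libraries. It stood at 5.79% and 5.35% of their geometric mean in LKO 2 and LKO 3, against 3.13% and 2.76% in flox 1 and flox 2, with 3.12% in LKO 1 and 4.09% in flox 3. With the agreeing libraries scaled to those markers the log2 fold change of Hal was 0.87 (SE 0.15, edgeR adjusted p = 0.0452). With the same scaling Hal did not pass by the genotype field (0.51, SE 0.24, edgeR adjusted p = 0.512). Nor did it pass by the titles (0.72, SE 0.15, edgeR adjusted p = 0.106). Arg1 stood at 18.0% and 16.9% of the same mean in LKO 2 and LKO 3, against 18.7% and 22.2% in flox 1 and flox 2. It was at 18.4% in LKO 1 and 23.4% in flox 3. With the agreeing libraries scaled to those markers Arg1 did not pass (-0.28, SE 0.14, edgeR adjusted p = 0.305). Both agreeing LKO libraries, and none of the others to a like degree, also held adrenal transcripts. The 8 adrenal cortex markers summed to 2103 CPM in LKO 2 and 226 CPM in LKO 3, against 9.66 and 7.04 CPM in flox 1 and flox 2, with 6.29 CPM in LKO 1 and 8.09 CPM in flox 3. Adipocyte markers (7 of 7 present) summed to 210.0 and 57.6 CPM in LKO 2 and LKO 3, against 48.6 and 24.0 CPM in flox 1 and flox 2, with 18.8 CPM in LKO 1 and 22.4 CPM in flox 3. Their part in the difference of Hal was not tested. Kidney tubule markers (6 of 8 present, without Slc12a1 and Kap), from another tissue with arginine-making enzymes, summed to at most 1.17 CPM in any library.

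Histidine breakdown continues from Hal through Uroc1, Amdhd1 and Ftcd, and none of these later genes passed with edgeR and the filter on low counts in any reading. Amdhd1, the imidazolonepropionase, had 208 and 278 CPM in LKO 2 and LKO 3, against 129 and 131 CPM in flox 1 and flox 2 (log2 fold change 0.91, SE 0.19; adjusted p by edgeR = 0.11). The groups did not overlap for Amdhd1. It was called in the agreeing libraries with no filter, without LKO 2 and with DESeq2, which also called it by the titles. Uroc1, urocanase, and Ftcd, which passes the formimino group to folate, were chosen after their values were seen. Uroc1 had 471 and 708 CPM in LKO 2 and LKO 3, against 377 and 486 CPM in flox 1 and flox 2, and overlapped (log2 fold change 0.46, edgeR adjusted p = 0.452). Ftcd had a log2 fold change of 0.44 (edgeR adjusted p = 0.404). Hal therefore differed by a larger fold than the later steps, but that contrast between genes was not tested.

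Glul, Arg2 and Sdsl, counterparts of genes among the 10, did not pass in any reading. Glul, glutamine synthetase, had 1376 and 1445 CPM in LKO 2 and LKO 3, against 1213 and 1465 CPM in flox 1 and flox 2 (log2 fold change 0.08, SE 0.21; adjusted p by edgeR = 0.889). Arg2, the mitochondrial arginase, lay at 0.323 to 0.621 FPKM in the 6 libraries, where Arg1 ranged from 442 to 599 FPKM. Sdsl, a serine dehydratase-like gene, lay at 7.20 to 10.2 FPKM, where Sds ranged from 94.0 to 153 FPKM. Arg1 and Sds thus stood above these counterparts per length in all 6 libraries.

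Among 109 other amino acid, zonation and regulator genes in 9 lists, 107 were tested, and edgeR called 0 in each of the 3 readings. At an unadjusted p under 0.05 there were 31 in the agreeing libraries, where 16.6% of all genes had one, 9 by the genotype field (8.85% of all genes) and 34 by the titles (13.9% of all genes). DESeq2 called 15 in the agreeing libraries, 2 by the genotype field and 13 by the titles, where it called 4.63%, 0.28% and 3.84% of all genes with an adjusted p, and limma-voom called 0. In the agreeing libraries 89 of the 107 had a log2 fold change above 0, with a median of 0.33, where 50.6% of all genes were above 0. The urea cycle and ammonia neighbours (15 tested, 0 called) had a median of 0.18. Car5a, the mitochondrial carbonic anhydrase that supplies bicarbonate to Cps1, had 62.3 and 66.6 CPM in LKO 2 and LKO 3, against 26.2 and 46.6 CPM in flox 1 and flox 2 (log2 fold change 0.83, edgeR adjusted p = 0.213). Gpt2, an alanine aminotransferase, went the other way with 476 and 500.0 CPM in LKO 2 and LKO 3, against 617 and 805 CPM in flox 1 and flox 2 (log2 fold change -0.54, edgeR adjusted p = 0.274).

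Medians in the remaining amino acid lists were 0.53 for the methionine cycle (7 tested), 0.46 for histidine, serine, threonine and glyoxylate breakdown (9 tested), 0.39 for aromatic amino acids (14 tested), 0.35 for branched-chain, lysine and proline breakdown (14 tested) and 0.32 for transporters (10 tested). The 2 genes of lowest p in each did not pass with edgeR: Cbs (1.02) and Ahcy (0.67) of the methionine cycle, Agxt (0.96), a glyoxylate aminotransferase, with Amdhd1, Haao (0.82) and Hpd of tryptophan and tyrosine breakdown, Prodh2 (0.93) and Mccc2 (0.48), and the transporters Slc43a1 (1.39) and Slc7a5 (0.98). Their edgeR adjusted p were 0.0984 to 0.293. DESeq2, and edgeR with no filter on low counts, called Cbs, Agxt, Amdhd1, Haao, Hpd, Prodh2 and Slc43a1 in the agreeing libraries, and the pericentral and periportal genes Cyp1a2, Lgr5, Igfals and Cdh1. Periportal genes outside the 10 had a median of 0.35 (11 tested) and pericentral genes one of 0.37 (12 tested). Cdh1, an epithelial cadherin that cholangiocytes share, had a log2 fold change of -1.96 (edgeR adjusted p = 0.0909), and the pericentral genes Cyp1a2 and Lgr5 had 1.39 and 1.12 (edgeR adjusted p = 0.0605 and 0.112). Regulators had a median of 0.26 (15 tested). Gcgr, the glucagon receptor, and Cebpa, a transcription factor of hepatocytes, had 0.57 and 0.44 (edgeR adjusted p = 0.274 and 0.314).

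**Figure D4:**
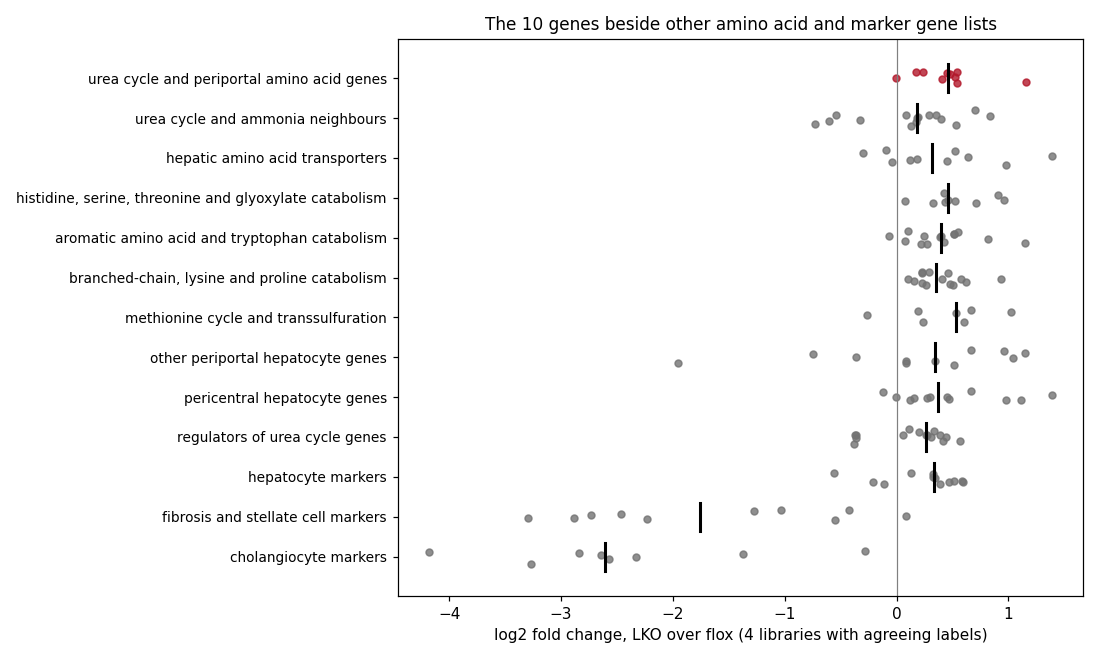
Log2 fold change, LKO over flox, of single genes (points) in the 4 libraries with agreeing labels, with the median of each list (black bar); the 10 urea cycle and periportal genes are in red. Their median of 0.46 lay among those of the other amino acid lists (0.18 to 0.53), and fibrosis and cholangiocyte markers lay far to the left.

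The genes were also compared by the shape of their levels over the 6 libraries, as the root-mean-square difference of centred log2 CPM, a description with no test. Within the set, Cps1 and Asl were closest (0.08), then Nags and Otc (0.12), and Arg1 and Hal were farthest apart (0.51). Among 8678 other genes with a mean of at least 10 CPM, Igfals, Cyp2c68 and Josd2 were nearest to Hal (0.08, 0.09 and 0.09). Igfals encodes the acid-labile subunit of the circulating IGF complex and had 212 and 217 CPM in LKO 2 and LKO 3, against 105 and 104 CPM in flox 1 and flox 2 (log2 fold change 1.05, SE 0.14; adjusted p by edgeR = 0.0513). Cyp2c68 belongs to a family of near-identical genes and is uncertain. Nearest to Nags were Mccc2, Otulin and Rcc1l (0.03 each).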

How the data were processed

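Liver RNA-seq of 6 libraries was analysed from 1 deposited table. TRIzol RNA was selected on poly-T beads for NEBNext Ultra libraries, per the labels' protocols. The counts deposited by the authors are whole numbers per gene and are not normalized. The FPKM values deposited by the authors follow from the counts, 1 length per gene and the library totals, to within 0.036% in 7260 genes. Per the submitters' processing notes, fastp, HISAT, StringTie, Cufflinks and featureCounts were used on GRCm39; no source used here gives their roles, versions, annotation or strand setting. The labels do not say that libraries came from separate mice, so p-values reflect only how much these samples vary, and that variation may be technical. All pairs of libraries differed by more than sampling noise (chi-square per gene 17.3 to 74.6).

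The main test was the quasi-likelihood test of edgeR 4.0.16 in R 4.3.3 (glmQLFit, glmQLFTest). Genes were kept by filterByExpr with a minimum count of 10 and a minimum total of 15, TMM factors were applied, and the test was run in 3 readings of the labels, with Benjamini-Hochberg adjustment over all tested genes and a threshold of 0.05. Hkdc1 was kept whatever its count and left out of counts over all genes. The SE is the log2 fold change divided by the square root of F. CPM use TMM factors over the 6 libraries. Counts of the 10 genes were 814 to 54870; the lowest has a 95% Poisson interval of 759 to 872, which covers counting error only. The test was checked on simulated counts with 100 genes changed 2-fold and 100 changed 4-fold. Laid out as the agreeing libraries, it recovered 41 of the 2-fold and 71 of the 4-fold changes, with 10 false calls. By the genotype field it recovered 30 and 76, with 4 false calls, and by the titles 46 and 89, with 12. Many changes of 2-fold were therefore missed.

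The 10 genes and the lists were chosen with earlier results of these data known. Of 212 list entries, 208 matched by symbol. Named genes were the 10, in each other list the 2 of lowest unadjusted p in the agreeing libraries, the counterparts Arg2, Glul and Sdsl, and for Hal and Nags the 3 genes of most similar shape; Uroc1 and Ftcd were named after their values were seen; marker lists are given as sums. Another counterpart is not reported here. Motifs were chosen after the values were seen. Alternatives were other size factors, scaling to hepatocyte markers, DESeq2 1.42.0, no filter on low counts, a filter at a mean CPM of 1, removal of the 20 genes with most counts, and limma 3.58.1 as voom on counts and as trend on log2(FPKM + 1) and log2(FPKM + 0.1), and leaving out each library.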

Additional observations from a re-analysis of the deposited data

How the results depend on the processing

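With 2 or 3 libraries a group the limits are wide: the 95% interval of the fold spanned no change for 8 of the 10 genes in the agreeing libraries, and leaving out a library there sets a lone library to vary like the other group. No paired analysis was possible because the labels give the groups no shared replicate numbers. The count of the 10 genes called in the agreeing libraries was 1, became 0 with limma-voom and ranged from 0 (without flox 1 or flox 2) to 1 when 1 library was left out. By the titles the count was 0 and became 1 with no filter on low counts and 2 with DESeq2, and ranged from 0 to 1 (without LKO 1) when 1 library was left out; by the genotype field it was 0 in every alternative. Of the other 109 list genes edgeR called 0 in the agreeing libraries. This became 2 when scaled to hepatocyte markers, 14 with no filter, 15 with DESeq2 and 2 with limma-trend on log2(FPKM + 0.1). Over all genes the calls were 91 of 14625 in the main setting. Under these 4 settings in the same order they were 199 of 14625, 1108 of 21949, 721 of 15582 and 121 of 14625. Some list genes were also called there without LKO 2 or without LKO 3, in fits with a lone LKO library. By the genotype field the count of list genes became 2 with DESeq2, where 41 of 14619 genes were called. By the titles it became 2 with no filter, 13 with DESeq2 and 0 to 3 (without LKO 1) when 1 library was left out. Calls over all genes by the titles were 51 of 14310 in the main setting. They were 247 of 22449, 611 of 15925 and 238 of 14787 with no filter, with DESeq2 and without LKO 1. Under the alternatives, 130 of 140 log2 fold changes of the 10 genes in the agreeing libraries, 147 of 160 by the genotype field and 150 of 160 by the titles kept direction and side of the threshold. Those that changed sign had not been called, and the cause was not tested. Scaled to hepatocyte markers, the sign changed in the agreeing libraries for Ass1 (-0.0957) and Sds (-0.0308), by the genotype field for Cps1 (-0.0365), Otc (-0.0234), Ass1 (-0.14) and Asl (-0.0204), and by the titles for Arg1 (-0.0717) and Sds (-0.0675). Ass1 by the genotype field turned negative with library size alone (-0.0404) and with both FPKM fits (-0.0288), and Arg1 in the agreeing libraries turned positive with limma-voom (0.0082). When 1 library was left out, the agreeing libraries gave ranges of -0.112 (without flox 1) to 0.511 for Ass1, -0.249 to 0.262 (without flox 2, and 0.0142 without LKO 2) for Arg1 and -0.0614 (without flox 1) to 0.585 for Sds. By the genotype field the ranges were -0.127 (without flox 1) to 0.329 for Cps1, -0.172 (without flox 1, and -0.0599 without LKO 3) to 0.158 for Ass1, -0.098 (without flox 1, and -0.0289 without LKO 3) to 0.374 for Asl and -0.297 to 0.038 (without flox 3) for Arg1. By the titles they were -0.0527 (without flox 3, and -0.0234 without flox 1) to 0.21 for Arg1 and -0.0205 (without flox 1, and -0.0046 without LKO 2) to 0.303 for Sds.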

Other observations

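The FPKM ratio of Cps1 to Nags, the enzyme and the gene for its activator, was 24.3 and 21.8 in LKO 2 and LKO 3, against 18.4 and 29.7 in flox 1 and flox 2, so the agreeing groups overlapped. The FPKM ratio of Gls2 to Glul, periportal glutamine breakdown against pericentral glutamine synthesis, was 0.233 and 0.273 in LKO 2 and LKO 3, against 0.186 and 0.206 in flox 1 and flox 2, with 0.204 in LKO 1 and 0.26 in flox 3. The 3 libraries titled LKO all had higher ratios than the 3 titled flox, and the ratio was computed after the values of both genes were seen.

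Within the deposited annotation, 7 of the 10 genes belong to the KEGG arginine biosynthesis pathway. Of its 13 other rows 10 were tested and 0 were called by edgeR in any of the 3 readings, a list added after the table was seen. Hal, Gls2 and Arg1 lie on chromosome 10, which also holds Hkdc1, and of these 3 genes Hal alone was called.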
